A study of Homo sapiens and Homo sapiens
Mus musculus and Mus musculus with 200 samples.

Results

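Chromatin binding of V5-tagged TWIST1 was compared between HEK293 cells that received TWIST1 alone and HEK293 cells that also received ALX4. The 6 peak lists described here were those of cells transfected with pcDNA3.1_V5-TWIST1(WT), 3 of them together with pcDNA3.1_ALX4-Flag and 3 without it, and they were chosen by these labels out of 200 samples in 143 groups. HEK293 is a human embryonic kidney cell line, labelled WT here, and all 6 samples were transfected with Lipofectamine 2000, harvested 24 h later and immunoprecipitated with an antibody against the V5 tag. V5 is a short peptide tag, so the lists report the transfected protein and not endogenous TWIST1. Replicates 2 and 3 are numbered in the labels and the first is not, and nothing says that the 3 came from separate cultures, so the spread between them may be technical. Overexpression from a plasmid in a kidney line limits both groups as a model of the tissues in which the 2 factors meet, and peak lists hold no expression values with which to check the line or the amount of either protein.

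TWIST1 is a basic helix-loop-helix factor that binds DNA as a dimer, usually with an E-protein partner, at the palindromic hexamer called the E-box. It is known for its roles in cranial mesenchyme, limb buds and the epithelial-mesenchymal transition. ALX4 is a paired-like homeodomain factor of craniofacial and limb mesenchyme, and proteins of its class bind sites with a TAAT core. The question the comparison addresses is whether the presence of ALX4 changes where TWIST1 is found on the genome.

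Sites were formed by merging the peaks of the 6 lists that overlapped by at least 1 bp. A site was called kept when all 6 lists held it, gained when all 3 lists with ALX4 and none of the 3 without held it, and lost in the opposite case. Each site was named by the protein-coding gene with the nearest transcription start, which says nothing about regulation. The sequences below are 61 bases of hg38 (plus strand, 5′ to 3′) around the motif nearest to the strongest summit, and capitals mark E-box words (CAGATG or CATCTG or CAGCTG or CATATG) and homeodomain words (TAATTA or TAATTG or CAATTA). The first set, shown for its spacing, is the 6 strongest gained sites in which an E-box and a homeodomain word stand 4 bp apart, in either order, an arrangement called the composite motif from here on.
SOX9, chr17:72376638-72376698: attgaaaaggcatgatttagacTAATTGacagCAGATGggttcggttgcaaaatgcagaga
ATRAID, chr2:27215187-27215247: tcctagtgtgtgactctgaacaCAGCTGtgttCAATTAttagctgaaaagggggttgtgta
POP4, chr19:29603441-29603501: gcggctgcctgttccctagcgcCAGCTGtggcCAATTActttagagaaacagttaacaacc
SDK1, chr7:3212774-3212834: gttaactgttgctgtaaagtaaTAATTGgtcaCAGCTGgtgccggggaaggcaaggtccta
GARIN4, chr1:212650544-212650604: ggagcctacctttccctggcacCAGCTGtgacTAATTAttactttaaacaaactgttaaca
WT1, chr11:32309960-32310020: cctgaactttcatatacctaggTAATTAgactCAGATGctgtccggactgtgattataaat

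The next set is shown because most gained sites lack the composite motif, among them these 2 of the 8 strongest, which have a homeodomain word near the summit and no E-box within the bases shown. Within 100 bp of the summit, the site at CACUL1 does hold an E-box outside these bases, and that at HDAC9 holds none.
CACUL1, chr10:118669539-118669599: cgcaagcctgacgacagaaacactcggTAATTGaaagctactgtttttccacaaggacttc
HDAC9, chr7:18846859-18846919: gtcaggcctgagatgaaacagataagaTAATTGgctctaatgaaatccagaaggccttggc

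Lost sites held no composite motif. A pair of E-boxes 5 bp apart, called the double E-box, stood in 4.91% of them, a larger share than in kept or gained sites. Of the 8 strongest lost sites 4 held it, and 3 of these are shown.
PXYLP1, chr3:141229317-141229377: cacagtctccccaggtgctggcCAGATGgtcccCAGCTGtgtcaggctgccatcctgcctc
ABTB3, chr12:107479084-107479144: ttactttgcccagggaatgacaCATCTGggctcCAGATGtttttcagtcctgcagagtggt
STX11, chr6:144138611-144138671: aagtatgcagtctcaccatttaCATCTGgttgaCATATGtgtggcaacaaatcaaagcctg

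The last set is 3 of the 4 strongest kept sites with the composite motif, shown because TWIST1 was found at them without ALX4 as well.
MFSD11, chr17:76789574-76789634: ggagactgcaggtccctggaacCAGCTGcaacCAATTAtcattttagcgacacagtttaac
TANC1, chr2:158968187-158968247: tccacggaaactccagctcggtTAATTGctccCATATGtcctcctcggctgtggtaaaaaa
PTGFRN, chr1:116856034-116856094: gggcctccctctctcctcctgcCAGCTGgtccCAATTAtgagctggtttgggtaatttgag

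The lists with ALX4 held 29430, 41369 and 65005 peaks in replicates 1, 2 and 3, and those without held 30471, 22465 and 56014, so the lengths overlapped between the groups. The authors' median fold enrichment per peak was 4.26, 5.01 and 4.74 with ALX4 and 3.87, 4.77 and 4.08 without. The number of reads behind a list is unknown, and a longer list can hold weaker peaks, so values are read within a list or set beside lists cut to equal length.

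Merging gave 106862 sites. Of these, 6661 were kept (6.23%), 5176 were gained (4.84%) and 1405 were lost (1.31%). The lists themselves chose these 13242 sites, so the counts are a description. Leaving out the first list with ALX4 raised the gained count to 11405, and leaving out the second raised it to 7828. The lost count was 3037 without replicate 3 with ALX4, 3106 without the first list that lacks ALX4 and 4255 without the second. Many sites fell just outside the rules. In 2 of 3 lists with ALX4 and none without there were 9441 sites, in all 3 with and 1 without 2803, in 2 of 3 without and none with 4709, and in all 3 without and 1 with 2004. The composite motif stood in 1.23% of the 9441 and 1.43% of the 2803, and in 0 of the 4709 and 0 of the 2004.

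**Figure D1:**
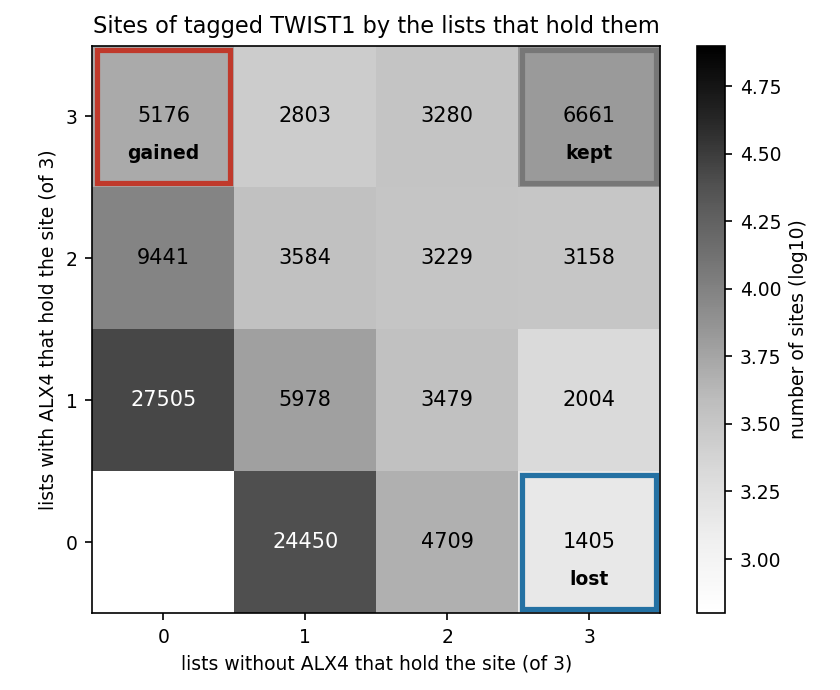
Number of sites held by 0 to 3 of the lists without ALX4 (horizontal axis) and by 0 to 3 of the lists with ALX4 (vertical axis), shaded on a log10 scale. The corner cells are the 6661 kept, 5176 gained and 1405 lost sites, and the cells beside them hold between 2004 and 9441 sites.

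Gained sites differed from kept and lost sites in sequence. In windows of 100 bp to either side of the strongest summit, the composite motif stood in 110 gained sites (2.13%, Wilson 95% interval 1.77 to 2.56), in 30 kept sites (0.450%, 0.316 to 0.642) and in 0 of 1405 lost sites. A count of 0 there allows a share of up to 0.214% by the rule of 3 counts, and the Wilson upper bound is 0.273%. Windows 1000 bp to either side held it in 0.0483% of cases beside gained sites and 0.0225% beside kept sites, in 0 beside lost sites, and the share over all sites was 0.553%. The sequences at SOX9, ATRAID and WT1 above show the arrangement in both orders. These intervals cover counting error only, and sites from one set of libraries are not replicates.

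Single homeodomain words followed the same order. They occurred in 28.7% of gained sites, 11.5% of kept sites and 3.70% of lost sites, against 18.9%, 13.2% and 8.29% in the windows beside them, so lost sites were poorer in these words than the surrounding DNA. E-boxes went the other way, with 49.3% of gained, 56.7% of kept and 63.1% of lost sites, against 23.3%, 22.5% and 27.2% in the windows beside them. A homeodomain word without an E-box stood in 14.9% of gained sites, 5.40% of kept sites and 0.996% of lost sites. The windows beside them held it in 14.9%, 10.3% and 5.94% of cases. By this count gained sites were level with the surrounding DNA, and kept and lost sites lay below it. The class leaves out windows with an E-box, which were more frequent at the sites than beside them. That alone lowers it at the sites, so it does not show whether homeodomain words without an E-box were enriched or depleted there. Neither word was found in 35.7%, 37.9% and 35.9%, so the composite motif describes a small minority of gained sites. The median GC content of the windows was 44.3% at gained sites, 53.2% at kept sites and 55.2% at lost sites, and AT-rich words depend on it.

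The double E-box was most frequent in lost sites, though most of them lacked it. It occurred in 69 of them (4.91%, 3.90 to 6.17), in 53 kept sites (0.796%, 0.609 to 1.04) and in 9 gained sites (0.174%, 0.0915 to 0.330), with 0.0712%, 0.0225% and 0.0290% in the windows beside them. Of the 71 pairs in lost sites, 28 joined CAGATG and CAGCTG and 23 joined 2 copies of CAGATG, where each word was read on either strand. PXYLP1 above is of the first kind and ABTB3 of the second. The CATATG form of the E-box was present in 12.2% of lost sites, 6.72% of gained sites and 5.67% of kept sites.

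One gap stood out in each arrangement. With gaps of 0 to 20 bp counted, 110 gained sites had the E-box and the homeodomain word 4 bp apart, while every other gap was found in 5 to 21 gained sites. In kept sites the count was 30 at 4 bp against 2 to 10 elsewhere, and in lost sites it was 0 against 0 to 2. For 2 E-boxes, 69 lost sites had a gap of 5 bp against 2 to 13 at other gaps, and 53 kept sites against 10 to 36. Gained sites had 9 pairs at 5 bp, within their range of 3 to 15 at other gaps.

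**Figure D2:**
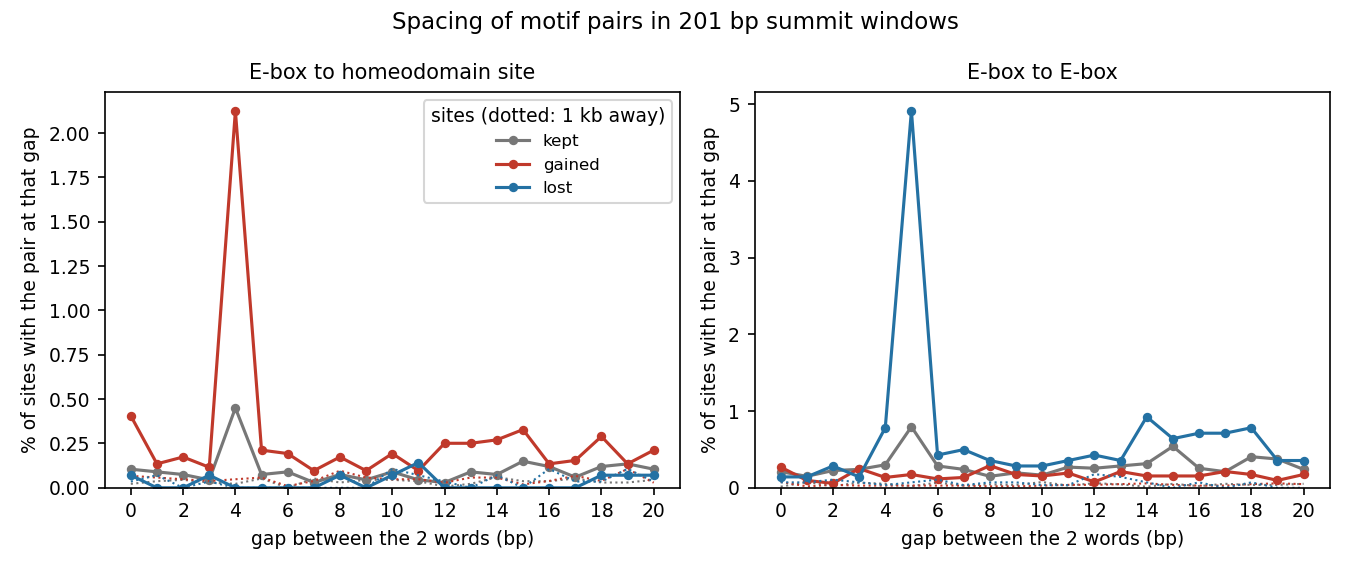
Share of kept, gained and lost sites (vertical axis, percent) in which 2 words stand at each gap from 0 to 20 bp (horizontal axis), for an E-box with a homeodomain word and for 2 E-boxes; dotted lines are windows 1 kb away. Gained sites peak at 4 bp for an E-box with a homeodomain word (2.13%), and lost sites peak at 5 bp for 2 E-boxes (4.91%).

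The letters of the composite motif could vary only among the words that were searched for. The 111 copies in gained sites had CAGATG or CATCTG as the E-box in 55 cases, CAGCTG in 48 and CATATG in 8. Their homeodomain word was TAATTA in 43 cases, and in 56 it was TAATTG with its G toward the E-box, as at SOX9 and SDK1 above. The opposite orientation accounted for 12. In the 30 copies of kept sites the same 3 forms numbered 11, 11 and 8. The median distance from the motif to the summit was 28 bp in gained sites and 21 bp in kept sites. A pair of TAAT and ATTA cores 3 bp apart, the arrangement that paired-class homeodomain dimers bind, was searched for after the other results had been seen. It stood in 1.02% of gained, 0.255% of kept and 0.0712% of lost sites, against 0.889%, 0.578% and 0.320% in the windows beside them.

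The same contrast held list by list, over all peaks and without any choice of sites. The composite motif was present in 0.860%, 1.02% and 0.758% of peaks with ALX4 and in 0.190%, 0.178% and 0.152% without. A homeodomain word was present in 19.3%, 19.1% and 17.0% of peaks with ALX4 and in 7.59%, 7.18% and 6.07% without, a difference of 11.5 percentage points between means of 18.4% ± 1.28 and 6.95% ± 0.786 (SD, n = 3, exact permutation p = 0.1). Windows 1000 bp away held such a word in 15.7% to 15.9% of cases with ALX4 and 12.7% to 13.2% without. The peaks without ALX4 thus lay below their surroundings and those with it above. GC content was 55.2% to 55.5% in the peaks without ALX4 and 46.9% to 47.1% in the windows 1000 bp away. With ALX4 it was 48.3% to 49.9% and 43.9% to 44.1%, and its part in this contrast was not tested. The double E-box went from 0.968%, 1.197% and 0.930% without ALX4 to 0.251%, 0.302% and 0.285% with it, 1.03% ± 0.145 against 0.279% ± 0.0258 (SD, n = 3, exact permutation p = 0.1). The E-box share was 43.4%, 46.6% and 45.0% with ALX4 and 47.2%, 53.8% and 50.9% without (exact permutation p = 0.1, n = 3). In each of these 4 motif measures the lists with and without ALX4 did not overlap. For the E-box this depended on the setting. With the 22465 strongest peaks of each list the difference was -3.33 points in place of -5.61 and the groups overlapped (exact permutation p = 0.4), as they did with windows of 50 bp to either side (exact permutation p = 0.2). With 3 lists against 3 the smallest two-sided p is 0.1, and adjusted over 10 such measures it was 0.111, so none could pass 0.05. The share with neither word overlapped between the groups, with 45.4%, 43.0% and 45.5% against 49.1%, 43.1% and 46.3% (exact permutation p = 0.4, n = 3).

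**Figure D3:**
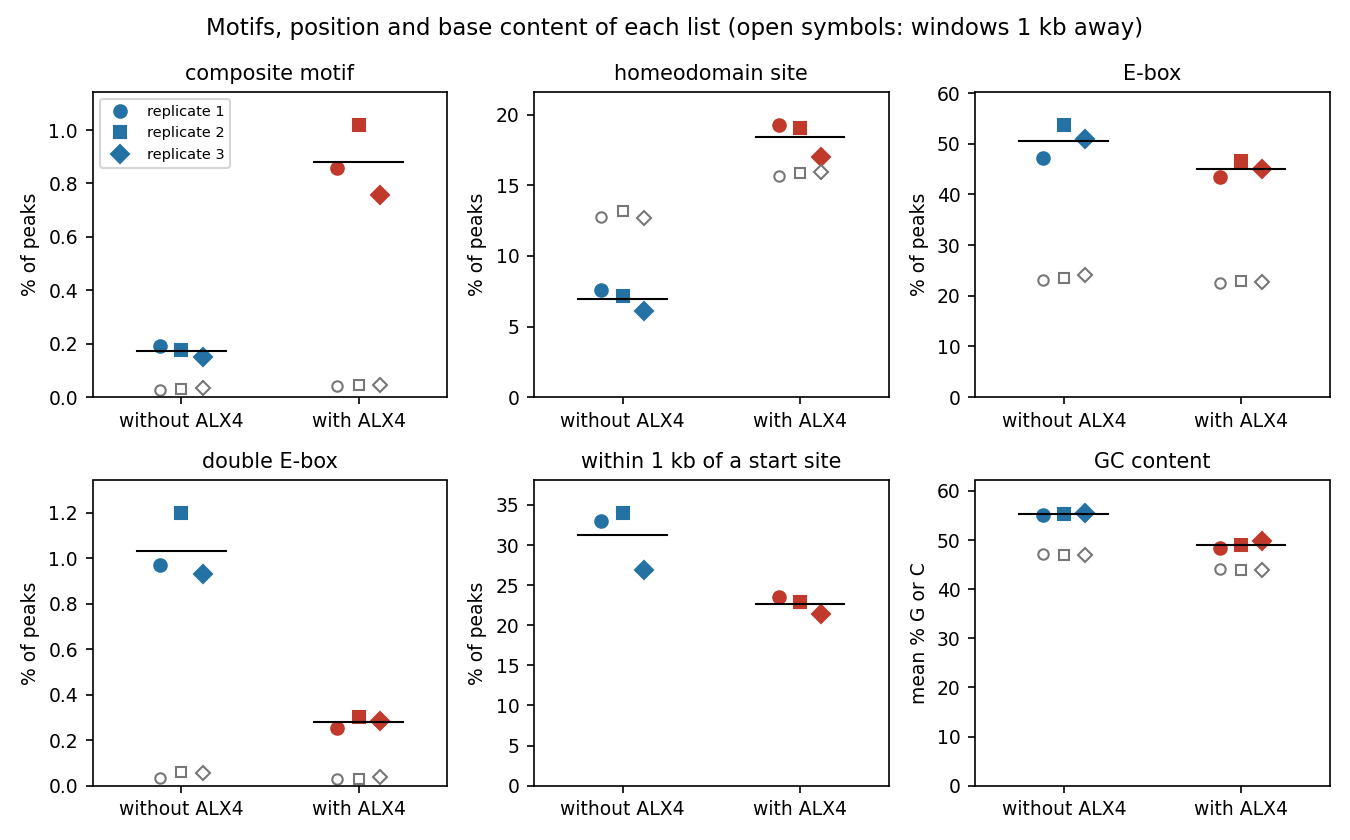
Share of peaks with each motif or near a transcription start, and GC content, for each of the 6 lists (points, with a line at the mean of 3), with and without ALX4; open symbols are windows 1 kb from the summits. The homeodomain points lie at 17.0% to 19.3% with ALX4 and at 6.07% to 7.59% without, on either side of the open symbols.

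Position in the genome also differed. Within 1 kb of a protein-coding transcription start lay 6.55% of gained sites (5.91 to 7.26), 45.7% of kept sites (44.5 to 46.9) and 22.0% of lost sites (19.9 to 24.2), against 17.3% of all sites. The median distance to a start was 20649.5 bp for gained, 1593 bp for kept and 10387 bp for lost sites. Gained sites lay over 50 kb away in 30.3% of cases, kept sites in 15.3% and lost sites in 21.2%. Introns held 57.4% of gained, 44.3% of kept and 46.9% of lost summits, and exons held 4.10%, 17.2% and 10.7%. Kept sites were wider (median 1454 bp) than gained (775 bp) and lost sites (819 bp). A kept site merges peaks of 6 lists and the others those of 3, so the rule itself favours this order. A wider site is also more likely to overlap a peak of any other list. Over whole lists the promoter share was 23.6%, 22.9% and 21.4% with ALX4 and 33.0%, 34.0% and 26.9% without (exact permutation p = 0.1, n = 3). GC content averaged 49.1% ± 0.761 (SD, n = 3) with ALX4 against 55.3% ± 0.169 in the other lists (exact permutation p = 0.1). GC content thus moved with the homeodomain words and the distance to promoters, and its part in those differences was not tested.

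A looser comparison of single lists gave the same order. In each numbered pair of lists, 60.1%, 68.7% and 55.7% of the peaks with ALX4 had no overlapping peak without it. Peaks without such a match ranked lower by −log10 p in their lists than those with one. Their median percentiles were 44.2, 44.5 and 39.9 against 59.2, 62.6 and 63.5. The part of peak strength in the differences that follow was not tested. These unmatched peaks carried the composite motif in 0.978%, 1.26% and 1.03% of cases and the matched peaks in 0.681%, 0.486% and 0.416% (difference 0.563 points, exact permutation p = 0.1, n = 3). Homeodomain words stood in 22.6%, 21.8% and 21.1% of the unmatched peaks and in 14.4%, 13.1% and 11.8% of the matched ones (exact permutation p = 0.1, n = 3). E-boxes stood in 41.0%, 44.2% and 42.6% against 47.1%, 51.9% and 47.9% (exact permutation p = 0.1, n = 3). Unmatched peaks were near promoters in 12.5%, 15.7% and 9.13% of cases, matched peaks in 40.2%, 38.6% and 36.8% (exact permutation p = 0.1, n = 3). None of these 4 pairs of groups overlapped, and over the 4 tests the adjusted p was 0.1. Unmatched and matched peaks are parts of the same 3 lists, which these permutations ignore. Paired by list, each of the 4 measures gave an exact sign-flip p of 0.25, the smallest that 3 pairs allow. The numbers served only to choose which lists to compare, and nothing says that same-numbered lists belong together. Peaks without ALX4 that had no match with it carried the composite motif in 0.0533%, 0.0210% and 0.0365% of cases, and the double E-box in 1.17%, 1.80% and 1.29%.

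Enrichment inside the lists is given by motif class, in the authors' fold per peak. The highest-ranked summit of a site, over the 6 lists, set the window in which its motifs were counted. Kept sites therefore enter a motif set more readily when the list that ranks them highest has its summit near the motif. This choice can raise the folds of such lists, and its part in the contrasts below was not tested. Kept sites with the composite motif had median folds of 11.7, 15.7 and 15.0 in the 3 lists with ALX4, where all kept sites had 4.78, 6.52 and 7.75. In the lists without ALX4 the same 30 sites had 6.12, 5.69 and 6.97, close to the 4.84, 5.49 and 6.27 of all kept sites. Kept sites with the double E-box, 53 in number, had median folds of 9.69, 11.7 and 13.3 without ALX4 and of 6.47, 9.34 and 11.7 with it, above all kept sites in each of the 6 lists. As ranks by −log10 p inside a list, the kept composite sites had median percentiles of 97.0, 97.7 and 98.0 with ALX4, and the kept double E-box sites 98.8, 98.5 and 99.0 without. Gained sites had median folds of 5.07, 6.23 and 6.48, and those with the composite motif 5.74, 8.15 and 7.76. Lost sites had 3.96, 4.47 and 4.76, and those with a double E-box 5.42, 6.97 and 6.98. Lost sites had lower folds than kept sites in each of the 3 lists without ALX4. Kept sites had to be found in all 6 lists and lost sites missed in 3, so the rules themselves favour this order.

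**Figure D4:**
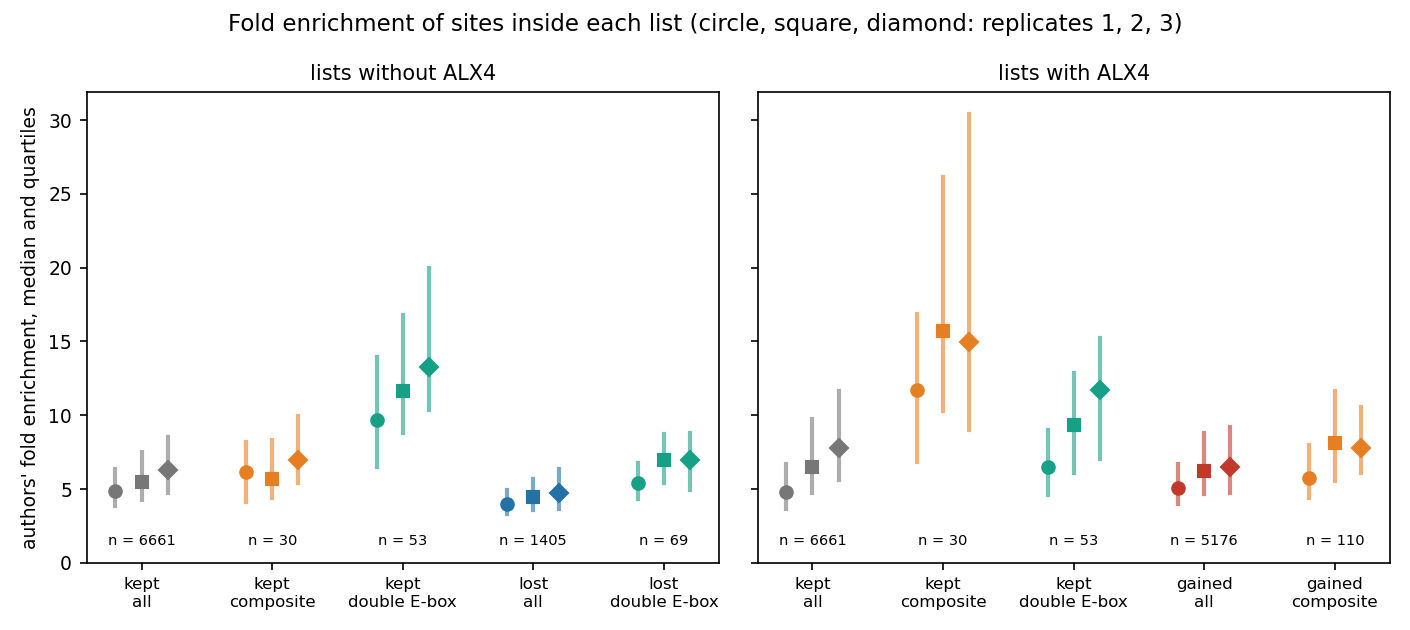
Authors' fold enrichment of kept, gained and lost sites inside each list (median, with bars from the lower to the upper quartile), for all sites of a class and for those with the composite motif or the double E-box. Kept composite sites stand highest in the lists with ALX4, at 11.7 to 15.7, and kept double E-box sites in the lists without it, at 9.69 to 13.3.

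Where a kept site held exactly 1 copy of a motif, the position of its summit could be compared between the lists. In 63 kept sites with 1 composite motif anywhere in the site, the median distance from summit to motif was 84, 70 and 93 bp with ALX4 and 185, 219 and 236 bp without. In 75 kept sites with 1 double E-box it was 105, 67 and 61 bp with ALX4 and 49, 36 and 43 bp without. Over all kept sites, summits of same-numbered lists of the 2 groups lay a median of 104, 73 and 55 bp apart. Between lists of the same group the summits lay a median of 35 to 57 bp apart with ALX4 and 40 to 58 bp apart without, a range that holds the value of 55 bp but not the others.

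The 8 strongest gained sites, ranked by the lowest percentile over the 3 lists with ALX4, lay nearest to ZC3H11B, SH3TC2, SOX9, CACUL1, VCAM1, PLEKHA6, HDAC9 and KREMEN1. None was within 1 kb of a start, 7 held a homeodomain word and 6 an E-box. At ZC3H11B, a zinc-finger gene, the site (chr1:219587676-219588859) had folds of 29.7, 43.1 and 28.5 in replicates 1, 2 and 3. At SOX9, the HMG-box factor of cartilage and neural crest whose enhancers lie far from the gene, the site (chr17:72376267-72377327) was intergenic, 255.6 kb downstream of the start. Its folds were 19.5, 28.8 and 27.3, and it was the only one of the 8 with the composite motif. HDAC9 encodes a class IIa histone deacetylase and is the neighbour of TWIST1 on chromosome 7. Its intronic site (chr7:18846172-18847441) had folds of 14.3, 33.6 and 36.6. VCAM1 encodes a cell adhesion molecule of the immunoglobulin family, and its intronic site, 1.9 kb from the start, had 19.1, 30.7 and 36.9. KREMEN1, a receptor for the WNT inhibitors of the DKK family, had 19.2, 35.3 and 27.5 at an intronic site. SH3TC2, a gene of myelinating Schwann cells, had 18.5, 36.9 and 33.2. CACUL1, a cullin-domain protein, had 32.2, 31.02 and 31.8, the narrowest spread of the 8. PLEKHA6, a pleckstrin-homology protein, had 20.1, 33.7 and 32.9, and the first list had the lowest fold at 6 of the 8 sites.

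Of the 8 strongest gained sites with the composite motif, 7 were intergenic and the one at ATRAID was intronic. ATRAID, named for its induction by retinoic acid, had folds of 16.2, 16.8 and 14.8 at chr2:27214630-27215698. POP4, a subunit of RNase P, had 14.0, 14.4 and 17.3 at a site 2.8 kb upstream of its start. SDK1, a cell adhesion molecule of the immunoglobulin family, had 13.1, 21.1 and 20.1 at a site 88.5 kb upstream. GARIN4 had 15.2, 14.5 and 15.1 at a site 26.1 kb downstream. WT1, a zinc-finger factor of kidney and gonad development, had 12.1, 14.8 and 21.9 at a site 82.1 kb downstream. ATP2B1, a calcium pump of the plasma membrane, had 11.7, 16.7 and 25.2, and DTNB, a dystrobrevin, had 11.96, 17.9 and 14.6.

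The 8 strongest lost sites all held an E-box, none held a homeodomain word, and 4 held a double E-box. PXYLP1, a phosphatase of proteoglycan synthesis, had folds of 15.2, 15.8 and 30.7 in the 3 lists without ALX4, at chr3:141228982-141229653 in an intron. STX11, a syntaxin of secretory cells, had 11.4, 18.1 and 10.4 at an intergenic site 11.8 kb upstream. ABTB3 had 12.1, 12.3 and 13.9, and GSN, which encodes the actin-severing protein gelsolin, had 9.98, 8.52 and 12.9. These 4 hold the double E-box. GRIA1, an AMPA-type glutamate receptor subunit, had 11.999, 17.8 and 14.0 at an intronic site with a single E-box. KRBA2, CRTAC1 and SEC14L1 had folds between 7.94 and 15.9.

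The strongest kept sites were ranked by the lowest percentile over the 6 lists, 4 with the composite motif and 4 without. With the motif, MFSD11 had 33.0, 45.9 and 41.6 with ALX4 and 22.2, 14.1 and 9.26 without. PTGFRN, which encodes a membrane protein that binds tetraspanins, had 23.9, 29.6 and 66.8 with ALX4 and 9.95, 15.3 and 16.5 without. TANC1, a postsynaptic scaffold gene, had 12.4, 26.3 and 27.9 with and 12.6, 17.6 and 12.1 without. BACH1, a haem-responsive repressor, had 15.7, 19.3 and 30.3 with and 8.30, 20.1 and 14.4 without. The folds with ALX4 lay above all of those without it at MFSD11 and PTGFRN, and overlapped them at TANC1 and BACH1. Among kept sites without the motif, WDR62, a centrosomal protein gene linked to microcephaly, had 44.02, 61.2 and 61.1 with and 13.5, 25.4 and 22.7 without. PCOLCE, the procollagen C-proteinase enhancer, had 27.5, 41.9 and 51.7 with and 16.2, 26.3 and 25.2 without. These folds come from lists of different length and enrichment, so they describe the sites and measure no change at any of them.

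Of 19962 protein-coding genes, 3234 (16.2%) were nearest to at least 1 gained site, 1204 (6.03%) to a lost site and 4761 (23.9%) to a kept site. AUTS2, a neurodevelopmental gene, had 20 gained sites among 210 sites of any kind, and ZNF608 had 16 among 132. The next most, 10 each, were near EFNA5, an ephrin ligand, JARID2, a Polycomb cofactor, the orphan nuclear receptor genes NR2F1 and NR2F2, the phosphatase gene PHLPP1 and the teneurin gene TENM3. The strongest gained site of JARID2 held the composite motif and had folds of 7.68, 17.2 and 14.7. The most lost sites were near ADARB2, of the RNA-editing ADAR family, with 6 among 65 sites, none of them gained. COL18A1, NTMT1, RBFOX3, TBC1D22A and TLE3 had 5 each. AUTS2 and ZNF608 also held 17 and 19 kept sites. Most genes had only 1 site of a class, 2202 of the 3234 for gained and 1056 of the 1204 for lost sites.

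Genes with sites of 2 classes were counted beside the shares of all genes. Gained and lost sites shared 348 genes. These were 10.8% of the genes with a gained site, where 6.03% of all genes had a lost one, and 28.9% of the genes with a lost site, where 16.2% of all genes had a gained one. Gained and kept sites shared 1524 genes, 47.1% of the former and 32.0% of the latter, beside 23.9% and 16.2% of all genes.

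Lists of genes relevant to the 2 factors are given by how many members were nearest to a site, beside the 16.2%, 6.03% and 23.9% of all genes. Among 18 neural crest specifiers, 11 (61.1%) had a gained site, 2 (11.1%) a lost site and 9 (50%) a kept site. NR2F1 and NR2F2 had 10 gained sites each, and SOX9 had 6 gained and 8 kept sites among 71. PAX3, a paired-box factor of the early crest, had 2 gained sites, the stronger in an intron with folds of 11.7, 16.5 and 12.3. TFAP2A, which encodes AP-2 alpha, had 2, and FOXD3 and MITF had 1 each, low in the lists, with lowest percentiles of 25.1 and 6.53. Nearest-gene counts rise with the empty distance around a gene, and the strongest gained site of NR2F1 lay 1022.2 kb from its start.

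Of 16 genes of the epithelial-mesenchymal transition and adhesion, 7 (43.8%) had a gained site, 3 (18.8%) a lost site and 10 (62.5%) a kept site. CDH2, which encodes N-cadherin, had 9 gained sites, and ZEB2, a zinc-finger repressor of E-cadherin, had 3. CDH1, which encodes E-cadherin itself, had 1, with low folds of 3.36, 4.84 and 5.29. SNAI1 had no site of the 3 classes, and SNAI2, VIM and FN1 had kept sites only. Of 27 genes of BMP and WNT signalling, 10 (37.0%) had a gained site, 8 (29.6%) a lost site and 15 (55.6%) a kept site. FZD1, a WNT receptor, had 9 gained sites and BMPR1B, a BMP receptor, had 4, neither with a lost site. TCF7L2, the WNT effector, had 5 gained, 9 kept and 1 lost site, and its strongest gained site had folds of 14.0, 16.3 and 18.0. AXIN2, a feedback inhibitor of WNT signalling, had 2 gained and 2 lost sites, and SMAD7, which inhibits BMP and TGF-beta signalling, had 2 lost and 3 kept sites.

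Of 20 homeobox genes of mesenchyme, 6 (30%) had a gained site, 4 (20%) a lost site and 8 (40%) a kept site. MSX2, mutated in a form of craniosynostosis, had 6 gained, 3 kept and 1 lost site among 59. DLX5, DLX6, LHX8 and PRRX2 had 1 gained site each. Of 20 bHLH and ID genes, 5 (25%) had a gained site, 4 (20%) a lost site and 10 (50%) a kept site. ID4, an inhibitor of bHLH dimers, had 5 gained sites, and TCF4, an E-protein, had 3. ID3 had 3 lost and 2 kept sites, and no gained one. BHLHE40 and ID2 had 6 kept sites each. Of 18 craniosynostosis and skull genes, 4 (22.2%) had a gained site, 4 (22.2%) a lost site and 7 (38.9%) a kept site. GLI3, a hedgehog effector, had 4 gained sites, and RUNX2, the regulator of osteoblasts, had 1, with folds of 3.92, 2.67 and 5.50 and a lowest percentile of 3.45.

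Among 21 collagen and matrix genes, 4 (19.0%) had a gained site, 3 (14.3%) a lost site and 9 (42.9%) a kept site. TNC, which encodes tenascin-C, had 6 gained sites and COL1A2 had 4. COL5A1 had 4 lost sites and no other of the 3 classes. COL11A1 had 1 gained site, with the composite motif and folds of 7.43, 9.67 and 6.88. Among 16 neuronal genes, 7 (43.8%) had a gained site, 2 (12.5%) a lost site and 6 (37.5%) a kept site. NCAM1, a neural adhesion molecule, had 2 gained sites. CNTN1, a contactin, had 1 with the composite motif and folds of 9.79, 11.7 and 11.4. RBFOX3, a neuronal splicing factor, had 5 lost and 1 gained site. The lists were chosen with results of these data known, so these shares are a description, and the members named beyond the 3 with the most sites of a list were picked after their values were seen.

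The 2 genes carried by the plasmids were looked at separately. An exon of TWIST1 held a peak in each list without ALX4, with folds of 6.41, 6.44 and 7.08 and −log10 q of 291, 608 and 1461. With ALX4 it held a peak in replicates 2 and 3, with folds of 3.71 and 4.10 and −log10 q of 239 and 484, and none in replicate 1. Exons of ALX4 held 1, 2 and 3 peaks in the lists with ALX4, with −log10 q up to 128, 582 and 1352. Without ALX4 they held 1, 0 and 1, with −log10 q of 4.94 and 4.44. No peak of either gene was in the list of cells given the empty plasmid pUC19. The transfected plasmids carry the coding sequence of TWIST1 or ALX4, and the part of plasmid reads in these peaks was not tested.

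Other libraries of the series, which were not used to choose the sites, held the same classes. A list made with an antibody against TWIST1 in cells given pcDNA3.1_V5-TWIST1 overlapped 3.73% of gained, 70.0% of kept and 36.5% of lost sites. With ALX4 the corresponding list overlapped 37.2% of gained, 53.4% of kept and 1.92% of lost sites. For cells given the other plasmid, pCAG-TWIST1, the gained share was 19.4% without and 76.7% with pCAG-ALX4-Flag-HA, and the lost share 83.6% without and 20.3% with. These pCAG lists held 50196 and 64536 peaks, and at the 10000 strongest of each the gained share was 2.09% without and 32.7% with ALX4, and the lost share 39.4% and 0.214%. The same cut of the pcDNA3.1 lists gave gained shares of 1.87% and 33.5% and lost shares of 24.98% and 0.996%. Each is 1 list, so no test was possible, and the labels do not say whether the TWIST1-antibody libraries of the pcDNA3.1 plasmids share chromatin with the V5 ones. All 8 of the strongest gained sites were in the TWIST1-antibody list with ALX4 and in the pCAG list with ALX4, against 0 and 2 without. The 8 strongest lost sites were in the lists without ALX4 in 7 and 8 cases, against 2 and 2 with it. ABTB3 and SEC14L1 were the 2 present in the pcDNA3.1 list with ALX4.

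By motif, the 110 gained composite sites were in the pcDNA3.1 TWIST1-antibody lists in 5.45% of cases without ALX4 and 53.6% with it. The 69 lost double E-box sites were in 63.8% and 2.90%. In the pCAG lists the double E-box sites went from 94.2% to 23.2% (14.8 to 34.4), and the composite sites from 17.3% (11.3 to 25.4) to 63.6% (54.3 to 72.0). Gained sites with neither word went from 21.6% to 77.6% in the pCAG lists, so sites without the composite motif were recovered there as well.

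Other homeodomain proteins were present in single TWIST1-antibody lists of different lengths. At the 2498 strongest peaks of each, the length of the shortest, the lists overlapped 9.72% of gained sites with ALX4, 5.20% with PRRX1b, 4.56% with PHOX2A, 4.02% with PRRX1a, 2.61% with MSX1 and 0.0966% with no partner. Lost sites were overlapped in 6.05% of cases with no partner, 2.28% with PHOX2A, 0.925% with MSX1, 0.214% with PRRX1a, 0.142% with PRRX1b and 0 with ALX4, which allows up to 0.214%. The sites had been chosen with ALX4, so this order compares the partners only at ALX4's sites. V5-tagged NEUROD1, another bHLH factor, was found at 0.541% of gained sites alone and 1.121% with ALX4, and at 25.01% and 19.8% of kept sites. Its lists, 1 each way with 5097 and 3925 peaks, overlapped 9.47% of lost sites alone and 4.06% with ALX4. At the 2498 strongest peaks of each, the lost shares were 5.34% and 2.78%, so NEUROD1 also overlapped fewer lost sites with ALX4. The V5 list of pUC19 cells, which have no tagged protein, held 463 peaks and overlapped 0.0580% of gained, 1.56% of kept and 2.28% of lost sites.

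TWIST1 variants gave 13 pairs of V5 lists, 1 with and 1 without ALX4 each. The gained sites were recovered more with ALX4 in 12 of 13 variants. The mean difference was 16.5 percentage points with an SD of 20.8 (n = 13, two-sided exact sign-flip p = 0.0022, adjusted over 2 tests p = 0.00439). The variants are different and related proteins. By their labels several carry sequence of the same bHLH factor, and L138F and L138Y change the same residue. The sign-flip tests, here and for lost and kept sites, treat them as independent, so their p-values do not stand for replicates of any single protein. Recovery of gained sites ranged from 0.889% to 20.2% without ALX4 and from 2.96% to 78.6% with it. The substitutions L138F and L138Y stood apart, going from 9.54% to 78.6% and from 11.7% to 61.03%. Over the other 11, which carry sequence of another bHLH factor as the labels name it, the mean difference was 8.68 points (exact sign-flip p = 0.00879), from -3.19 for NEUROD1L to 20.0 for HAND2ins. The list of NEUROD1L with ALX4 was the shortest, with 8559 peaks. With every list cut to its 8559 strongest peaks the mean difference was 5.28 points, again higher in 12 of 13 (exact sign-flip p = 0.000488). NEUROD1L was then 2.72 points higher with ALX4, and NEUROG2loop was the variant that was lower, by -0.174 points.

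Lost sites were recovered less with ALX4 in 9 of 13 variants, a mean difference of -15.1 points (SD 27.6, n = 13, exact sign-flip p = 0.0803), which did not pass 0.05. L138F went from 86.2% without ALX4 to 19.1% with it and L138Y from 80.4% to 22.1%, while TAL1loop was 26.8 points higher with ALX4. Without L138F and L138Y the mean difference was -6.43 points (exact sign-flip p = 0.321). The lists ranged from 8559 to 55196 peaks. Cut to the same number of strongest peaks, the difference was -12.5 points and lower in 13 of 13 variants (two-sided exact sign-flip p = 0.000244, as low as 13 variants allow). The call for lost sites therefore rests on equal list length. Kept sites were recovered more with ALX4 in 11 of 13 variants, by a mean of 4.32 points (SD 12.9, n = 13, exact sign-flip p = 0.246). At equal list length the kept difference was 4.74 points, again higher in 11 of 13, and passed 0.05 (exact sign-flip p = 0.00708).

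**Figure D5:**
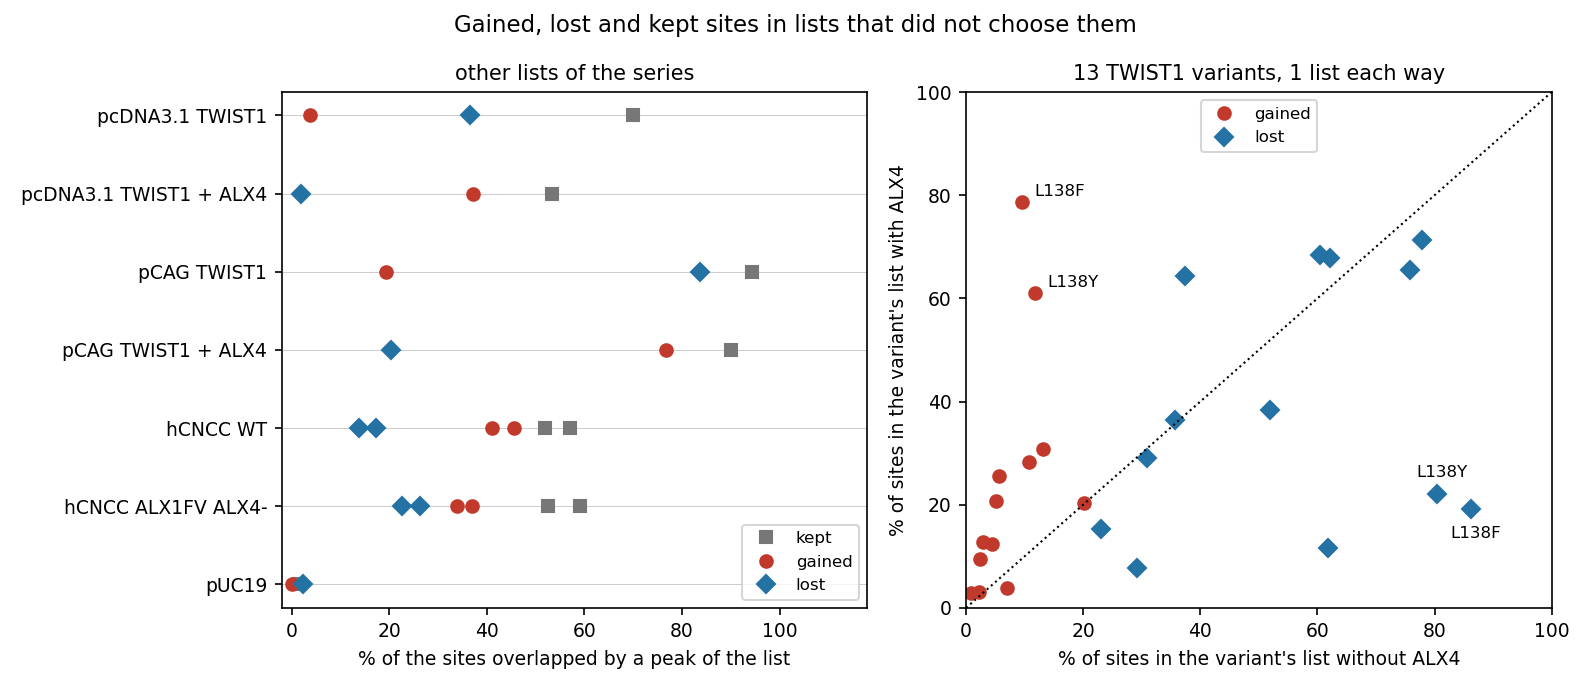
Left, percent of gained, lost and kept sites overlapped by single lists of other HEK293 libraries and neural crest cells. Right, percent of gained and lost sites in the list of each of 13 TWIST1 variants without (horizontal) and with (vertical) ALX4, with a dotted line of equality; L138F and L138Y lie highest for gained sites, at 78.6% and 61.03%.

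In human cranial neural crest cells (hCNCC), where TWIST1 is expressed from its own gene, 39.2% of gained, 46.7% of kept and 11.4% of lost sites were in both TWIST1 lists of unedited cells. The order of gained and kept sites depended on list length. The 10000 strongest peaks of the 2 lists overlapped 19.3% and 19.2% of gained, 12.6% and 12.5% of kept and 2.70% and 2.92% of lost sites. Gained sites with the composite motif were in both lists in 74.5% of cases (65.7 to 81.8), those with an E-box alone in 47.4%, those with a homeodomain word alone in 34.3% and those with neither in 26.9%. Kept sites had the same order at higher shares, with 86.7% (70.3 to 94.7) of the 30 composite sites, 52.3%, 47.8% and 37.6%. Of the 8 strongest gained sites 8 were there, SOX9 and HDAC9 included, and of the 8 strongest lost sites 3, at PXYLP1, GRIA1 and ABTB3. GARIN4 was the 1 of the 8 strongest gained composite sites that was not.

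The line ALX1FV ALX4- lacks ALX4, carries a degradable tag on ALX1 and was sampled before degradation. Its 2 lists held 36.9% and 33.9% of gained sites, against 45.5% and 41.1% in the unedited lists, and 26.3% and 22.6% of lost sites against 17.3% and 13.8%. The groups did not overlap in either class, but with 2 against 2 the smallest exact permutation p is 0.333 and both tests gave it. Kept sites overlapped between the groups, with 59.1% and 52.6% against 57.1% and 51.9% (exact permutation p = 0.667). The 4 lists held 43274 to 59282 peaks. Cut to the 10000 strongest, the ALX4- lists held 16.1% and 16.6% of gained and 8.54% and 7.97% of lost sites, on the same sides of the unedited lists as before. Kept sites then no longer overlapped, with 13.6% and 13.7% against 12.6% and 12.5%. Found in both unedited lists and in neither ALX4- list were 233 gained, 149 kept and 4 lost sites, and in the reverse pattern 19, 178 and 77. The lost double E-box sites were in both lists in 40.6% of cases in unedited cells and 72.5% in ALX4- cells, and the gained composite sites in 74.5% and 70.0%. The line differs from the unedited cells by the ALX1 tag as well as the absence of ALX4, and the 2 cannot be told apart here.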

How the data were processed

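Each V5 ChIP-seq library came as a narrowPeak list without a header, read in the standard column order of that format. Per that format, the authors deposited a fold (ratio of enrichment) and −log10 p and q values for each peak, all of them the peak caller's own. Bowtie2 2.4.1, SAMtools 1.10, MACS2 2.2.7.1 and deepTools 3.5.0 are named in the submitters' processing notes with the build hg38. For the control and the threshold of peak calling, nothing is stated in the labels, input libraries were not analysed here, and the depth behind each list is unknown. The lowest −log10 q in the 6 lists was 1.30 to 1.31.

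Repeated intervals of a list were reduced to the summit with the highest −log10 p, and peaks of the 6 lists were merged where they overlapped by at least 1 bp. Motifs were searched on both strands of hg38 in 100 bp to either side of the strongest summit and in windows 1000 bp to either side, with pysam 0.24.0 and pandas 2.3.3. The E-box was CAGATG or CATCTG or CAGCTG or CATATG, and the homeodomain word TAATTA or TAATTG or CAATTA. A pair of TAAT and ATTA cores 3 bp apart was added after the data had been seen. Promoters were the 1000 bp around a GENCODE 44 transcription start. Only the 19962 protein-coding genes were used, a restriction decided after the files had been read. Tests were exact and two-sided: permutation of 3 lists against 3, and sign flips over 13 variants (scipy 1.17.1, Benjamini-Hochberg adjustment). The code was tested on simulated sites with planted motifs.

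Named sites are the 8 gained, the 8 gained with the composite motif and the 8 lost sites with the highest lowest within-list percentile of −log10 p, and 4 kept sites each with and without the motif by the same rule. Also named are the genes of the plasmids, the genes nearest to the most gained and lost sites, and members of gene lists. Members and lists were chosen with earlier results of these data known. The alternatives were sites in at least 2 of 3 lists, −log10 q of at least 5, lists cut to equal length, summit windows, windows of 50 bp to either side, other promoter distances, leaving out each list, and the replicate number as a block.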

Additional observations from a re-analysis of the deposited data

How the results depend on the processing

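The alternatives numbered 128 over 15 results, and none of those for a difference reversed its direction. The counts of sites and the composite share of gained sites, with 10 alternatives each, have no direction to reverse. The replicate block leaves a difference unchanged by construction. Tests of 3 lists against 3 cannot pass 0.05, so no stability is read from their p-values. Over their alternatives, the difference between lists with and without ALX4 ranged from -7.31 to -3.33 points for the E-box, from 6.67 to 13.5 for the homeodomain word, from -1.17 to -0.553 for the double E-box, from -11.0 to -6.65 for promoters and from -6.91 to -5.86 for GC content. Between unmatched and matched peaks it ranged from 0.295 to 0.982 for the composite motif, from -9.87 to -5.71 for the E-box, from 4.61 to 10.4 for the homeodomain word and from -27.7 to -13.6 for promoters. The numbers of sites depended on the rule. Sites in at least 2 of 3 lists numbered 16328 kept, 14617 gained and 6114 lost, with the composite motif in 1.55% of the gained ones. With −log10 q of at least 5 there were 2981 kept and 787 lost sites. With the 22465 strongest peaks of each list there were 3748 kept, 3397 gained and 2375 lost sites, and the composite share was 2.74%. Windows of 100 bp to either side of each summit, taken as sites, gave 3743 kept sites, and motif windows of 50 bp to either side a composite share of 1.41%. Leaving out 1 list gave 6710 to 8965 kept, 5497 to 11405 gained and 1533 to 4255 lost sites, and composite shares of 1.67% to 2.13%. The gained difference over the variants passed 0.05 in all 3 alternatives run, at 5.28 to 16.4 points. Cut to equal numbers of strongest peaks, the variants' lost sites differed by -12.5 points and passed 0.05 (exact sign-flip p = 0.000244). Why each count moved was not tested. Leaving out L138F and L138Y was chosen after seeing the data.

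With the replicate number as a block, the differences were 0.563 points for the composite motif, -6.37 for the E-box, 8.74 for the homeodomain word and -26.1 for promoters between unmatched and matched peaks. Between lists with and without ALX4 they were -5.61 for the E-box, 11.5 for the homeodomain word, -0.752 for the double E-box, -8.67 for promoters and -6.23 for GC content. Each of these blocked tests gave an exact sign-flip p of 0.25, the smallest that 3 pairs allow. The deviations of same-numbered lists correlated by 0.00887, 0.00141 and -0.0937 over 106862 sites, so the numbers were not taken to pair the lists, and no list correlated best with its own number.

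The unknown depth limits the lists: a site missing from a list was not detected there, which does not show that TWIST1 was absent.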
